A study of Mus musculus with 4 samples.

Results

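Epithelial antimicrobial and acute phase defence in the mouse colon was followed here through 8 genes chosen by name: Reg3g, Reg3b, Saa3, Wfdc2, Dmbt1, Pla2g2a, Lypd8 and Mptx1. All 8 were found among 16637 named genes, each with 1 probe, and all 8 were among the 10056 genes called measured, meaning that on some array they were as bright as the median of all probes with a gene symbol (269 to 272). Female mice, 24 in all in groups of 6, received 0.1 ml of 50% ethanol, and colon RNA was taken on day 7. The vehicle held 250 mg/kg TNBS and ginger extract in the TNBS/ginger group, 250 mg/kg TNBS and zingerone in the TNBS/zingerone group, 250 mg/kg TNBS alone in the TNBS group, and nothing further in the mock group. The strain is spelled BALC/c for the groups given TNBS and BALB/c for mock. TNBS (trinitrobenzene sulfonic acid) is a hapten that provokes colitis when given with ethanol, so every group, mock included, had ethanol, and the agents were given mixed with TNBS rather than after colitis had set in. Each group has 1 Cy3 array of whole colon RNA, and it is not stated how many mice it represents or which amount of ginger or zingerone they had. With no replicate, a difference between arrays has no error and no p-value, and precision is limited by there being so few arrays.

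The colon epithelium keeps bacteria away from its surface with secreted proteins, and its defence differs between rest and injury. REG3 lectins and serum amyloid A proteins are made at higher levels when microbes or cytokines such as IL-22 and IL-6 signal through STAT3, C/EBP and NF-κB factors. Other products, such as LYPD8 on the surface of colonocytes and the pentraxin MPTX1, are features of the undisturbed colon. Whole tissue was measured, so fewer cells of a type and less RNA per cell cannot be told apart.

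The genes fell into an induced and a lost set on the TNBS array. Reg3g, Reg3b, Saa3 and Wfdc2 were at least 2-fold higher on the TNBS array than on the mock array, and Dmbt1, Pla2g2a, Lypd8 and Mptx1 were at least 2-fold lower. Among all measured genes, 5.08% were that much higher and 4.52% that much lower, 9.61% in all. The genes were proposed with results of these arrays in view, so that 8 of 8 passed 2-fold is a description and no support for the division. The median log2 difference, TNBS minus mock, was -0.20 over the 8 genes and -0.04 over all measured genes, since the sets go opposite ways.

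**Figure D1:**
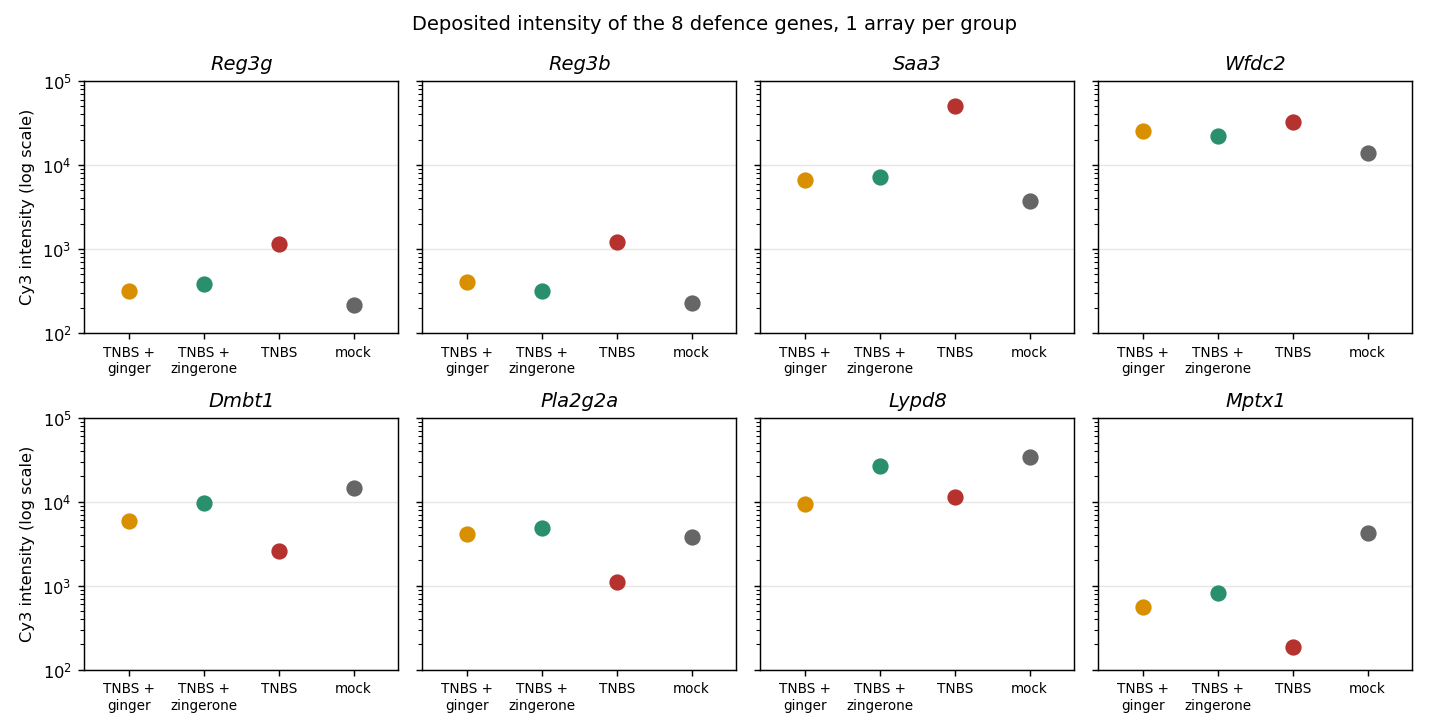
Each panel plots the deposited Cy3 intensity of 1 gene (log scale) on the TNBS + ginger, TNBS + zingerone, TNBS and mock arrays, 1 point per array. The TNBS point is the highest for Reg3g, Reg3b, Saa3 and Wfdc2, and the lowest for Dmbt1, Pla2g2a and Mptx1. For Lypd8 the ginger point (9370.25) lies below the TNBS point (11312).

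The DNA just before the start of the induced genes is shown first, because 3 of them, Reg3g, Reg3b and Saa3, were at least 2-fold lower than on TNBS on both other arrays. These are the 250 bases before the start site in the RefSeq promoter table (GRCm38.p6), 5′ to 3′ on the strand of the gene, for Reg3g (chr6:78468875-78469124, minus strand), Reg3b (chr6:78370635-78370884, plus strand) and Saa3 (chr7:46715677-46715926, minus strand). Mptx1 (chr1:174330268-174330517, plus strand), with the deepest decrease, stands beside them. Capitals mark matches to the 5 motifs searched: TTCNNNGAA for STAT factors, TTNNGNAA for C/EBP factors, TGANTCA for AP-1, the NF-κB consensus, all on both strands, and TATAAA on the strand of the gene.
Reg3g: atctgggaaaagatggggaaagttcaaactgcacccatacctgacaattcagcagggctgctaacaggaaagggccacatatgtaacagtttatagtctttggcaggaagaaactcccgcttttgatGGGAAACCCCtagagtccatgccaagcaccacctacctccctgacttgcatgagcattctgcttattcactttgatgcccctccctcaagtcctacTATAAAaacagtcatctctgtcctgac
Reg3b: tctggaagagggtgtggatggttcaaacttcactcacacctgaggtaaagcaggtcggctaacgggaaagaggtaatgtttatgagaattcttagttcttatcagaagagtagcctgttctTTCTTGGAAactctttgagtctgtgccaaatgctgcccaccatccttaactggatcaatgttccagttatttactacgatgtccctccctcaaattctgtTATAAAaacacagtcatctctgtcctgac
Saa3: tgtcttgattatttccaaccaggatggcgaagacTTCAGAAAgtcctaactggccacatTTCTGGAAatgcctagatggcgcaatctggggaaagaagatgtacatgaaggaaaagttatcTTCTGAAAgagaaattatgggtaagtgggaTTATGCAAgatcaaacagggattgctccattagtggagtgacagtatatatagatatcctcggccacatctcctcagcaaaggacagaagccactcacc
Mptx1: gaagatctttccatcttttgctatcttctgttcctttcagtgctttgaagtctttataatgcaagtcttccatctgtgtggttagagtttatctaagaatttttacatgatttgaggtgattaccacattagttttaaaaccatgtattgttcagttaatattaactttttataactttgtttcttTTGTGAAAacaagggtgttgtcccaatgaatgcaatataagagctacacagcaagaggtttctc
In the Reg3g promoter the capitals are 1 NF-κB consensus match that begins 123 bases before the start and 1 TATAAA at 27 bases. In the Reg3b promoter they are 1 STAT match at 129 bases and 1 TATAAA at 29 bases. The 4 capital stretches of Saa3, at 216, 191, 129 and 99 bases, all match the C/EBP motif, as does the 1 stretch of Mptx1 at 64 bases. Of 32851 promoter windows of this length, 7.02% hold the STAT motif, 36.8% the C/EBP motif, 7.25% the NF-κB consensus and 7.59% TATAAA, and 0.591% hold at least 4 C/EBP matches. AP-1 (6.75% of all windows) matched none of these windows. The window of Wfdc2 held 1 C/EBP match, and neither window of Lypd8 held any of the motifs. No matches in the printed windows overlap one another, and a match is a description of letters and not a binding site. The Reg3g and Reg3b windows were identical at 173 of 253 aligned positions (68.4%), the highest of all pairs among the 6 genes with a window, Dmbt1 and Pla2g2a having none shown, and their last 20 bases before the start were the same. The other pairs lay between 36.5% and 50.3%.

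Reg3g and Reg3b encode C-type lectins that bind bacterial cell walls, and Reg3g is known to kill Gram-positive bacteria and hold them off the mucosal surface. Reg3g had an intensity of 316 on the ginger array, 386 on the zingerone array, 1154 on the TNBS array and 213.5 on the mock array. It was 5.40-fold higher on TNBS than on mock, rank 100 from the top of 10056 measured genes. Reg3b was at 406.5 on ginger, 313 on zingerone, 1205 on TNBS and 228 on mock, and was 5.29-fold higher on TNBS than on mock. Both stand high on the TNBS array alone. The Reg3b value comes from the 1 probe annotated Pap, an older symbol of Reg3b that the RefSeq table also lists for Papola. Papola has 3 other probes under its own symbol. Reg3g and Reg3b are close paralogs, the probe sequences were not used here, and shared hybridisation between their transcripts was not tested.

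On the mock array both were dim, with 43.4% of probes dimmer than Reg3g and 47.5% dimmer than Reg3b, so a fold against mock is understated by any background in the values. After subtracting the 5th percentile of an array from its values, the TNBS over mock fold was 11.3 for Reg3g and 10.2 for Reg3b. Against TNBS, Reg3g was 3.65-fold lower on ginger and 2.99-fold lower on zingerone. Reg3b was 2.96-fold lower on ginger and 3.85-fold lower on zingerone. Their order between the agents is opposite, Reg3g 1.22-fold lower and Reg3b 1.30-fold higher on ginger than on zingerone. Both gaps are below 2-fold. Relative to mock, Reg3g was 1.48-fold higher on ginger and 1.81-fold higher on zingerone, and Reg3b 1.78-fold and 1.37-fold higher. With background subtraction these were 2.13-fold and 2.90-fold for Reg3g, and 2.69-fold and 1.81-fold for Reg3b.

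The other Reg genes did not share this course. Reg4, a lectin of deep crypt secretory cells in the colon, was at 5744 on ginger, 7366.5 on zingerone, 1443 on TNBS and 8165 on mock, so it was 5.66-fold lower on TNBS than on mock. Reg3a, which lies between Reg3b and Reg3g on chromosome 6, was at 292, 379, 257 and 315 on the same arrays in that order, less than 2-fold apart between TNBS and mock. Reg1, Reg2 and Reg3d were too dim on all arrays to count as measured. Reg1 and Reg2 are abundant in exocrine pancreas, which also makes Reg3 proteins when inflamed. Of 7 named pancreas markers 4 were measured, and Prss2, Cpa1 and Pnlip were not. The sum of the 7 was 5620 on ginger, 5120.5 on zingerone, 4086 on TNBS and 6255 on mock. Most of its range came from the elastase gene Cela1, at 2373 on ginger, 2346.5 on zingerone, 1312 on TNBS and 3252.5 on mock, whereas Ctrb1 was at 1214, 1098, 1171 and 1034 in that order. Cela2a was at 571, 471.5, 368 and 486. The part of pancreas RNA in the Reg3g and Reg3b values was not tested.

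Saa3 encodes an acute phase serum amyloid A made locally by epithelium, macrophages and adipocytes in mice. It was at 6609.8 on ginger, 7209.8 on zingerone, 50859 on TNBS and 3761 on mock. The TNBS value was 13.5-fold above mock (rank 31 from the top), and only 27 of 29922 probes were brighter on that array. Saa3 had the widest spread of the induced genes, and 43 measured genes had a wider one over the 4 arrays. On ginger it was 7.69-fold lower than on TNBS, rank 6 from the bottom, and on zingerone 7.05-fold lower, rank 18. It stayed 1.76-fold above mock on ginger and 1.92-fold above mock on zingerone, which is within 2-fold. All arrays end at an intensity of 64634 and share nearly 1 distribution, so a value this high is limited by the top of the scale.

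Markers of cells that can make Saa3 moved in part with it. Of 7 named adipocyte markers 6 were measured and 4 were at least 2-fold higher on TNBS than on mock, with a list sum of 16448 on ginger, 29046 on zingerone, 64762 on TNBS and 10217 on mock. Fabp4, a fatty acid carrier of adipocytes and some macrophages, was at 9969, 19855, 45906 and 4160 in the same order, and Plin1, which coats the lipid droplet, was not measured. Cfd, the adipocyte protease adipsin, was at 4804, 6871, 16128 and 4376. The macrophage sum was 2853 on ginger, 2918 on zingerone, 3454 on TNBS and 2800.2 on mock, and of 7 measured markers only Cd68 was at least 2-fold higher on TNBS than on mock. Csf1r, the growth factor receptor of macrophages, was at 312, 275, 347 and 252 in that order. Neutrophil markers, read beside these, were at least 2-fold higher on TNBS than on mock in 5 of 5 measured. Cxcr2 among them was a mean of 2 probes that differed, at 0.18 and 2.17 (log2, TNBS minus mock). Of 7 named, Csf3r and Mpo were not measured. The list sum was 95994 on ginger, 75158 on zingerone, 146524 on TNBS and 5118 on mock. S100a8 and S100a9 made up most of it on ginger, zingerone and TNBS. Both were within 2-fold of TNBS on ginger and zingerone, where Mmp8 and Retnlg were over 2-fold lower than on TNBS. The part of these cells in the Saa3 values was not tested.

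Wfdc2 encodes a secreted protein with whey acidic protein domains, a fold shared with protease inhibitors. It was bright everywhere, at 25701 on ginger, 22331 on zingerone, 32109 on TNBS and 13941 on mock. TNBS was 2.30-fold above mock (rank 368 from the top), the smallest difference among the induced genes. Unlike Reg3g, Reg3b and Saa3 it was within 2-fold of TNBS on both other arrays, 1.25-fold lower on ginger and 1.44-fold lower on zingerone. It was 1.84-fold above mock on ginger and 1.60-fold above mock on zingerone. Of 6 measured genes of its family, Wfdc21 was at 4013 on ginger, 3263 on zingerone, 26364 on TNBS and 376.5 on mock, and Wfdc18 at 1190.4, 2401, 1465.5 and 3955. Wfdc1 (419.5, 394.5, 431.5 and 514.5) differed by less than 2-fold. The leukocyte protease inhibitor Slpi, at 41640 on ginger, 43027 on zingerone, 31203 on TNBS and 32885.5 on mock, was bright on all arrays and differed little. The family therefore held high, low and level genes on the TNBS array.

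**Figure D2:**
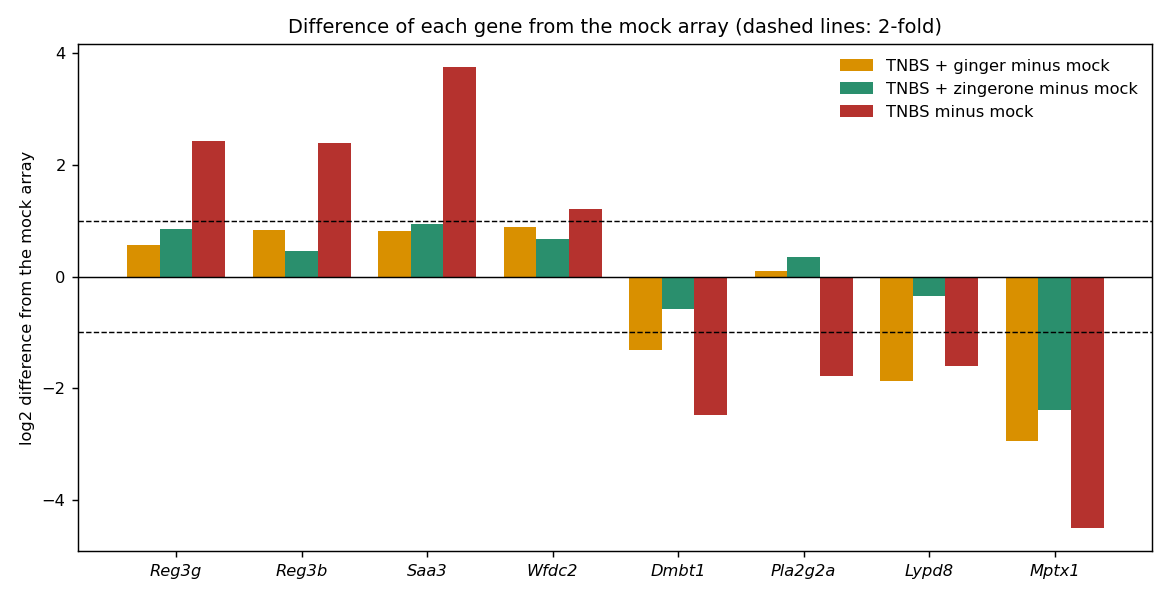
Bars give the log2 difference of the TNBS + ginger, TNBS + zingerone and TNBS arrays from the mock array for each gene, and dashed lines mark 2-fold. Against mock, 3 genes (Dmbt1, Lypd8 and Mptx1) pass 2-fold on ginger and 1 (Mptx1) on zingerone, all of them lower.

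Among the lost genes, Mptx1 differed most. It encodes a secreted pentraxin of the intestinal mucosa, a family of ring-shaped proteins that bind microbes and dying cells. Mptx1 was at 553 on ginger, 812 on zingerone, 188 on TNBS and 4270.25 on mock. TNBS was 22.7-fold below mock, rank 2 from the bottom among 10056 genes, and 25 genes had a wider spread over the 4 arrays. On TNBS only 35.0% of probes were dimmer, so the fold is limited by background, and it was 62.8 after subtraction of the 5th percentile. The TNBS level left after subtraction was 66.0, near the floor of 50 set in that step, so subtracted folds against TNBS are uncertain in size. Ginger was 2.94-fold and zingerone 4.31-fold above TNBS, or 6.53-fold and 10.5-fold after subtraction. Both stayed far below mock, by 7.72-fold on ginger and 5.26-fold on zingerone. It was the only one of the 8 genes at least 2-fold below mock on both arrays. The other measured pentraxins, Ptx3, Nptx1 and Nptx2, stayed within 2-fold between TNBS and mock, though the 2 probes of Ptx3 differed, with TNBS minus mock at 1.24 and 0.09 (log2).

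Dmbt1 encodes a large secreted scavenger receptor cysteine-rich protein that binds and clumps bacteria. It was at 5831 on ginger, 9768 on zingerone, 2609.8 on TNBS and 14577 on mock. TNBS was 5.59-fold below mock, rank 22 from the bottom. Against TNBS it was 2.23-fold higher on ginger and 3.74-fold higher on zingerone. It remained 2.50-fold below mock on ginger and was 1.49-fold below mock on zingerone. The arrays therefore run from TNBS through ginger and zingerone to mock, and the ginger to zingerone step of 1.68-fold is below 2-fold. None of the other 5 measured scavenger receptor cysteine-rich genes was 2-fold apart between TNBS and mock. Ssc5d, of that family, was at 376, 325, 372 and 566 on ginger, zingerone, TNBS and mock, and Scara5 at 234, 409, 329 and 241. Loxl2 was within 2-fold as a mean of 2 probes, at 0.61 and 1.01 (log2, TNBS minus mock).

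Pla2g2a encodes a secreted phospholipase A2 that breaks the membranes of Gram-positive bacteria and was mapped as a modifier of intestinal tumours in mice. RefSeq lists it as a transcribed pseudogene in the C57BL/6J assembly, a strain that carries a frameshift in it, whereas BALB/c mice have an intact gene. It was at 4099 on ginger, 4905 on zingerone, 1111 on TNBS and 3821 on mock. TNBS was 3.44-fold below mock. Ginger was 3.69-fold above TNBS (rank 16 from the top) and zingerone 4.42-fold (rank 21). Both exceeded the mock value, by 1.07-fold and 1.28-fold, which is within 2-fold. It was the only one of the lost genes to do so. Pla2g10, a phospholipase of the same secreted family, had a like course at 2257 on ginger, 2960 on zingerone, 1078 on TNBS and 2783 on mock. The other 6 measured family genes, Pla2g5 close to it on chromosome 4 among them, stayed within 2-fold between TNBS and mock as means over their probes. The 2 probes of Pla2g12a differed, with TNBS minus mock at 0.06 and 1.17 (log2). Paneth cells make Pla2g2a in the small intestine; 3 of 6 listed markers were named, Itln1 was not measured, and Lyz1, the gene of lysozyme, was at 570 on ginger, 523 on zingerone, 441 on TNBS and 448 on mock. The other measured one, the matrix protease gene Mmp7, was at 405 on ginger, 536 on zingerone, 446 on TNBS and 274 on mock, so it was higher on TNBS than on mock where Pla2g2a was lower, by less than 2-fold.

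Lypd8 encodes a GPI-anchored protein of the uppermost colonocytes that binds flagella and keeps motile bacteria out of the inner mucus. It was at 9370.25 on ginger, 26942 on zingerone, 11312 on TNBS and 34475 on mock. TNBS was 3.05-fold below mock. On zingerone it was 2.38-fold above TNBS and 1.28-fold below mock, but on ginger it was 1.21-fold below TNBS and 3.68-fold below mock (rank 26 from the bottom). Ginger and zingerone thus differed 2.88-fold, rank 20 from the bottom, and Lypd8 was the only one of the 8 genes 2-fold apart between them. Among all measured genes 0.746% were that much lower and 0.358% that much higher on ginger than on zingerone, 1.1% in all. Of the 8 other measured genes on the Ly6/PLAUR domain list, which need not hold every relative of Lypd8, 1 passed 2-fold between TNBS and mock. It was Plaur, the urokinase receptor, at 2176 on ginger, 1347 on zingerone, 8043 on TNBS and 379 on mock. Lypd5 was within 2-fold as a mean of 2 probes that differed, at -0.28 and 1.08 (log2, TNBS minus mock). Ly6a was at 13941 on ginger, 14093 on zingerone, 20488 on TNBS and 14230.2 on mock, and Ly6d at 422, 292, 484 and 269.

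**Figure D3:**
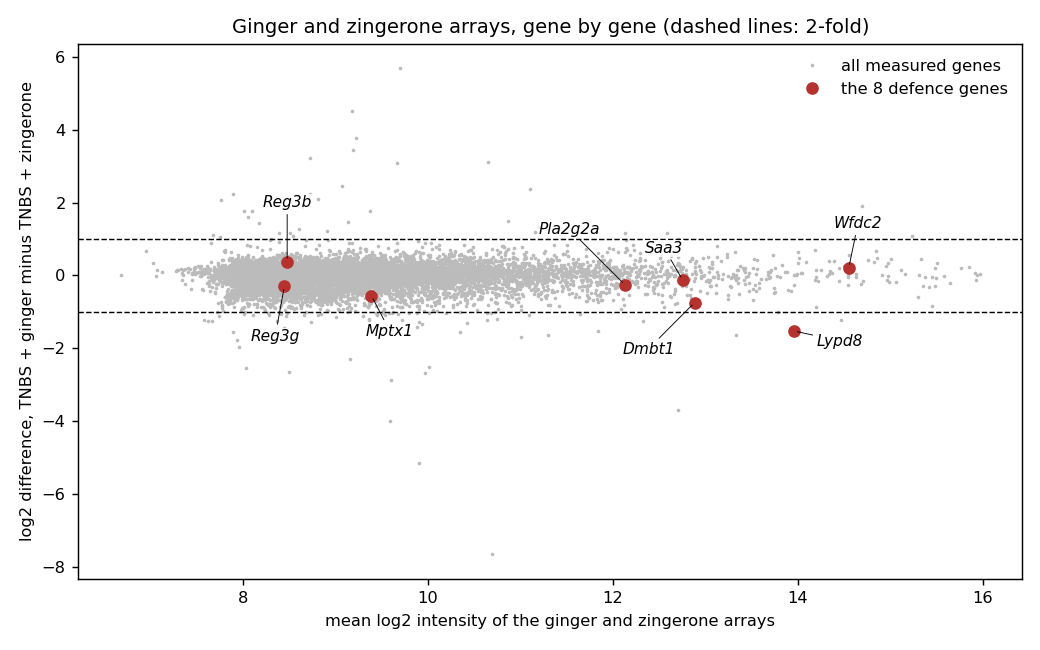
The log2 difference of the TNBS + ginger minus the TNBS + zingerone array is plotted against the mean log2 intensity of both for all 10056 measured genes (grey) and the 8 defence genes (red), with dashed lines at 2-fold. Lypd8, at -1.52, lies below the lower line, and the other 7 red points lie between the lines.

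The colonocyte markers give the setting of the lost genes. All 8 general epithelial markers were measured, and their sum was 157399 on ginger, 152856 on zingerone, 130908 on TNBS and 129908 on mock. The sum hides opposite courses: the keratin genes Krt18 (20561.5 on ginger, 13116 on zingerone, 18134 on TNBS and 8565 on mock) and Krt8 were higher on TNBS than on mock, Krt18 by over 2-fold. The other markers, Epcam, Cdh1, Krt19, Vil1, Cldn7 and Elf3, were all lower on TNBS by less than 2-fold, and the median log2 difference over the 8 was -0.27. Vil1, of the brush border, was lowest of these relative to mock, at 2535 on ginger, 2400.0 on zingerone, 1733 on TNBS and 3098 on mock. Absorptive colonocyte markers, 8 of 8 measured, had 4 at least 2-fold lower and none 2-fold higher on TNBS than on mock. Their sum was 43101 on ginger, 69389 on zingerone, 24795 on TNBS and 53357 on mock. Krt20 alone of them was higher on TNBS than on mock, by less than 2-fold. It was at 9804 on ginger, 11211 on zingerone, 12315 on TNBS and 7648 on mock. Car4, a carbonic anhydrase of mature colonocytes, was at 1915, 2981, 968 and 7778.5 in that order, and Guca2a, the gene of guanylin, at 14803, 34596, 2772 and 20660.0. On ginger 0 of the 8 colonocyte markers were 2-fold higher and 3 were 2-fold lower than on zingerone, the direction of Lypd8. Goblet cell markers had 4 of 7 measured at least 2-fold lower on TNBS than on mock. Among the 4, Clca1 was a mean of 3 probes that differed, from -3.73 to 0.19 (log2, TNBS minus mock). The goblet cell sum was 168313 on ginger, 193680.3 on zingerone, 117795 on TNBS and 204893 on mock. Spink4, a peptide of goblet cells, was at 23447 on ginger, 24360.0 on zingerone, 7105 on TNBS and 33939.5 on mock, and Atoh1, the factor of secretory cell fate, at 1062, 945, 393 and 1120.1. Fibroblast markers summed to 10536 on ginger, 10077 on zingerone, 24214 on TNBS and 7943 on mock, with Thy1 at 600.5, 728, 978 and 412. Most of the TNBS sum was Vim, at 6446, 5140, 18998.5 and 3388 in the same order. Of 7 measured fibroblast markers 5 were within 2-fold between TNBS and mock, and of these Col1a1 and Col1a2 were lower on TNBS. Smooth muscle markers summed to 22460 on ginger, 15006 on zingerone, 23844 on TNBS and 26081 on mock, with Smtn at 925, 781, 488 and 1927 and Des at 2025, 1707, 3643 and 2130. The part of colonocyte or goblet cell number in the lost genes was not tested.

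Against TNBS, 3 of 8 genes were 2-fold lower on ginger (2.48% of all measured genes) and 3 were 2-fold higher (1.35%), with 3.83% of all genes past 2-fold either way. On zingerone 3 were 2-fold lower than on TNBS (2.96% of all genes) and 4 were higher (4.57%), with 7.54% past 2-fold either way. Each of these counts uses the same TNBS array as the TNBS over mock comparison, so a high or low TNBS reading enters both. Against mock no gene was 2-fold higher on ginger (1.62% of all genes) and 3 were 2-fold lower (1.08%), with 2.7% either way. On zingerone no gene was 2-fold higher than on mock (1.53%), and 1 was 2-fold lower (1.05%), with 2.59% either way. The 4 induced genes were above mock on both arrays by less than 2-fold in the deposited values, at 1.37-fold to 1.92-fold. With background subtracted that call ended for Reg3g, 2.13-fold above mock on ginger and 2.90-fold on zingerone, and for Reg3b on ginger, at 2.69-fold. The median log2 difference of the 8 genes was 0.33 for ginger minus mock and 0.41 for zingerone minus mock, against 0.01 for all measured genes in both.

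**Figure D4:**
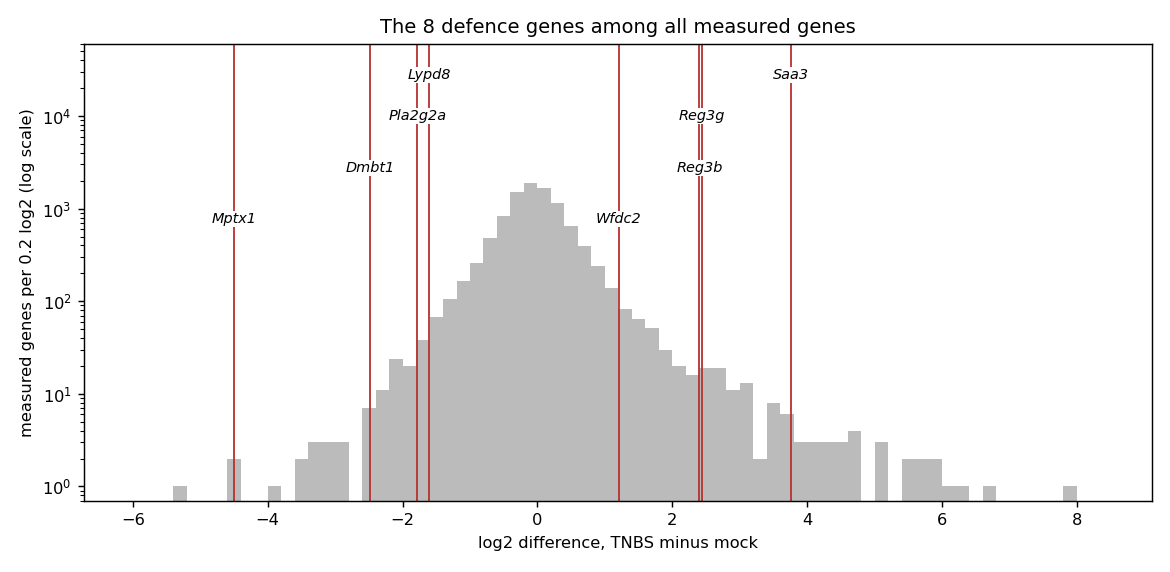
Grey bars count measured genes (log scale) by their log2 difference, TNBS minus mock, in steps of 0.2, and red lines mark the 8 defence genes. Mptx1 (-4.50) and Saa3 (3.76) lie in the sparse tails, and Wfdc2 (1.20) lies closest to 0.

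Further genes of mucosal defence also went both ways. Outside the 8 genes, 25 of 30 listed antimicrobial and mucosal defence genes were named and 16 measured. Of these, 5 were at least 2-fold higher and 3 at least 2-fold lower on TNBS than on mock (median log2 difference -0.15). Lcn2, which takes iron-binding siderophores from bacteria, was at 8152 on ginger, 7699.8 on zingerone, 31578.5 on TNBS and 290.2 on mock. S100a9, a subunit of the metal-binding calprotectin, was at 51921.5, 41248, 59655.5 and 1046, and its partner S100a8 at 36266, 28462, 43027 and 1234 in the same order. Pigr, which carries IgA through the epithelium, was at 813.5 on ginger, 792.5 on zingerone, 302 on TNBS and 2977 on mock. Against TNBS, 3 of these 16 genes were at least 2-fold lower on ginger (2.48% of all measured genes) and 2 at least 2-fold higher (1.35%). On zingerone 3 were at least 2-fold lower than on TNBS (2.96%) and 3 at least 2-fold higher (4.57%). The β-defensin genes Defb1, Defb3, Defb4 and Defb14 were too dim to count as measured.

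The acute phase list leaned one way. Of 23 listed genes 19 were named and 16 measured. On TNBS 7 were at least 2-fold higher and 0 at least 2-fold lower than on mock (median 0.80 on the log2 scale). Hp, the haemoglobin-binding haptoglobin, was at 4950 on ginger, 8544 on zingerone, 30534 on TNBS and 1195 on mock. Lrg1, a leucine-rich plasma glycoprotein, was at 3278, 4594, 8895.5 and 1180.5 in that order. Serpina3n, a protease inhibitor, was at 3251, 4458, 14466 and 2729.5, and the metallothionein Mt2 at 30416.5, 33341, 60415 and 8324. On ginger 6 of the 16 were at least 2-fold lower than on TNBS (2.48% of all measured genes). On zingerone 4 were (2.96%), and none was 2-fold higher on either array. C3, the central complement protein, was the 1 gene of the list 2-fold apart between the agents, at 3460.3 on ginger, 1512 on zingerone, 8509 on TNBS and 2847 on mock. Saa4 was too dim to count as measured, and Saa1 and Saa2 were not analysed here. Of 4 serum amyloid A genes listed, only Saa3 and Saa4 were found among the named genes.

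**Figure D5:**
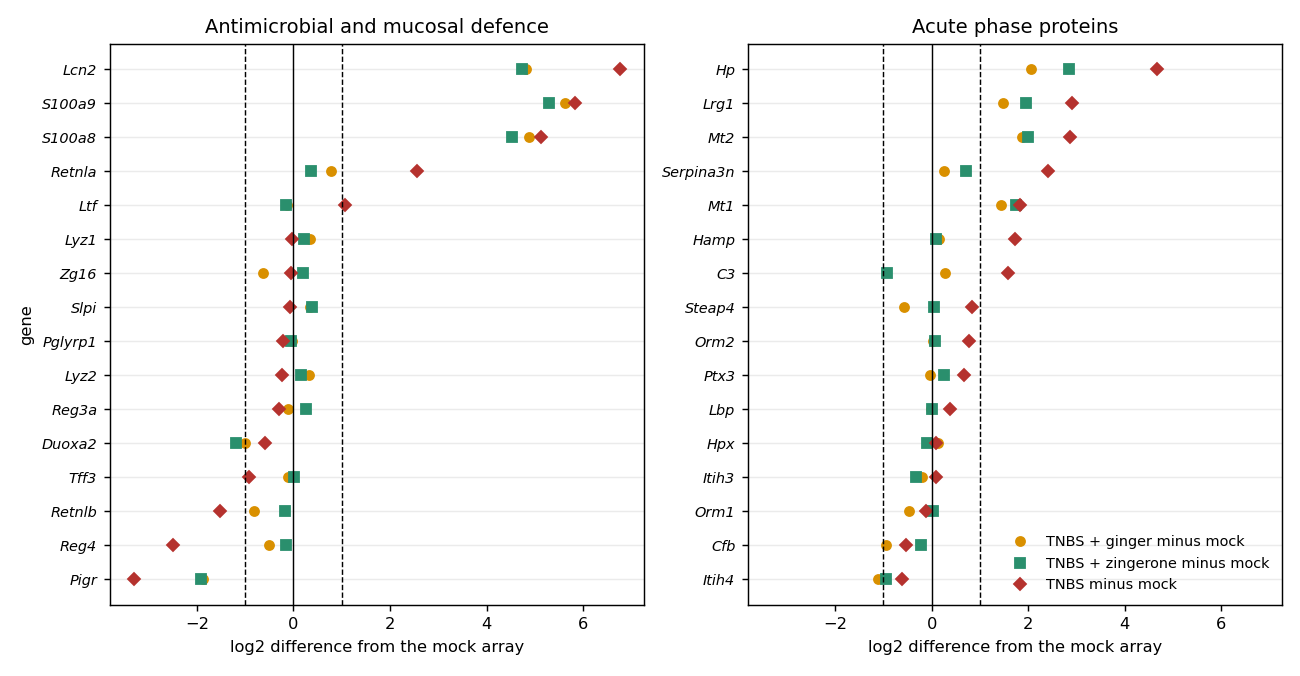
Points give the log2 difference of the TNBS + ginger (circles), TNBS + zingerone (squares) and TNBS (diamonds) arrays from the mock array for the 16 measured antimicrobial and mucosal defence genes (left) and the 16 measured acute phase genes (right), with dashed lines at 2-fold. Lcn2 and Hp lead their panels on TNBS, and Pigr, Reg4 and Retnlb lie past the lower line on the left.

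Cytokines and factors known to control these genes were read beside them. Il22, Il17a and Il23r were too dim to count as measured, which does not show that they are absent, since dim probes cannot be told from background here. Il22ra1, the receptor chain for IL-22 on epithelium, was at 240.0 on ginger, 524 on zingerone, 233 on TNBS and 240.0 on mock. Il6 was at 212 on ginger, 183 on zingerone, 755 on TNBS and 96.1 on mock. Cebpb, a C/EBP factor of acute phase genes, was at 4546.5, 3868, 19442 and 984 in that order, and Nfkbiz, an NF-κB cofactor, at 936, 696.5, 3565 and 650.5. Il18, an epithelial cytokine, went the other way, at 1190.4 on ginger, 1862 on zingerone, 495 on TNBS and 2769 on mock. In all, 27 of 30 genes of this list were named and 20 measured. On TNBS 6 were at least 2-fold higher and 1 at least 2-fold lower than on mock (median 0.16). Stat3 itself (411, 470, 436 and 489) was within 2-fold.

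Genes that sense microbes had 18 of 20 named and 14 measured. On TNBS 3 were at least 2-fold higher than on mock (5.08% of all measured genes) and 2 at least 2-fold lower (4.52%). Cd14, the lipopolysaccharide co-receptor, was at 4222 on ginger, 4097 on zingerone, 28071 on TNBS and 1322 on mock, and Irak3, which restrains Toll-like receptor signals, at 341, 321, 1309 and 203.5. The inflammasome genes Nlrp6 (1881.5, 1476, 1243 and 3003) and Casp1 (1453, 1626, 1119 and 3081.5) were lower on TNBS. Tlr4 and Myd88 were within 2-fold.

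For each of the 8 genes, the 3 measured genes with the most similar course over the 4 arrays were found by the root mean square gap between log2 values centred on each gene's mean. With 4 arrays many genes can look alike, so this is a description. Reg3g was nearest to Socs3, the feedback inhibitor of STAT3 signals (gap 0.084), then Fcgr4 and Emb. Reg3b was nearest to Fpr2, a receptor for bacterial peptides (0.012), Sod2 and Vim. Saa3 was nearest to Alox5ap (0.12), Chil3 and Ccl7, and Wfdc2 to Col16a1 (0.052), Carhsp1 and Itga3. Dmbt1 was nearest to Il18 (0.045), Acss1 and Ndufb9, and Pla2g2a to the prostaglandin-degrading enzyme Hpgd (0.21), Acer1 and Inpp5j. Lypd8 was nearest to Gldn (0.15), with Wfdc18 (0.22) and Plekhm1 after it, and Mptx1 had no close match, with Pigr at 0.48, Car4 at 0.54 and Ifi27l2b at 0.74. Socs3 was at 1967 on ginger, 2427 on zingerone, 7641 on TNBS and 1538 on mock. Among the 8 genes themselves Reg3g and Reg3b were the closest pair (0.24), and Saa3 and Mptx1 the most unlike (2.94).

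The genes beside each member on its chromosome mostly did not go with it. The 2 nearest measured genes on each side were taken, 32 entries in which a gene may stand beside 2 members. Of these 32 entries, 7 were at least 2-fold apart between TNBS and mock, against 9.61% of all measured genes. Among the 7, 2 were Reg3g and Reg3b as neighbours of each other. Whether neighbours differ from other genes was not tested. Rnf186, near Pla2g2a and an epithelial ubiquitin ligase, was at 1368.5 on ginger, 1336 on zingerone, 601 on TNBS and 1786 on mock. The nearest measured gene above Lypd8, 1810065E05Rik, was at 2526, 2523.5, 804 and 4510 in that order. Like Lypd8 it was over 2-fold lower on TNBS than on mock, but unlike Lypd8 it was alike on ginger and zingerone. Whether it is related to Lypd8 was not examined. Suclg1, the nearest measured gene below Reg3b, and Pigt, next to Wfdc2, were 2-fold lower on TNBS, opposite to the gene they neighbour, and Tph1 near Saa3 was 2-fold higher.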

How the data were processed

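Whole colon RNA of 4 groups was measured on 1-colour Cy3 arrays, 1 per group. The deposited values are intensities on a linear scale. Per the submitters' processing notes limma was used, with no version or role, and the sources used here do not give the background correction or scaling. The sorted deposited intensities are within 1.84% of each other on all arrays, a pattern that quantile normalization gives, and range from 74.25 to 64634.

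Of 29922 probes 21020 have a gene symbol in the platform annotation and 8902 have none. Symbols were updated through RefSeq synonyms (GRCm38.p6): 3410 were updated, 17558 were current and 51 were kept. Lypd8 and Mptx1 were found through older symbols, and Reg3b through the shared alias Pap. Values were log2-transformed without a pseudocount, probes of 1 gene were averaged, and genes under the median of the named probes on all 4 arrays (270.5 on mock) were left out of counts. A gene was called at 2-fold or more, with no test, since there is 1 array per group. The code that makes the calls was run on simulated data with planted changes. These were larger than the threshold and lay in bright genes, under an assumed noise level. The run therefore does not show how reliable a 2-fold call is on these arrays.

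The members, lists and settings were chosen with earlier results of these data known. Named genes are the 8 members, the 4 genes of each pathway or family list (2 of each marker list) with the largest TNBS minus mock difference, those 2-fold apart between ginger and zingerone, and the 3 nearest courses per member. Names outside this, chosen after their values were seen, are the genes below the filter, neighbours on the chromosome, Slpi, Stat3, Tlr4, Myd88, Retnlb, Lypd5, Ctrb1, Col1a1, Col1a2, Krt20, Mmp8, Retnlg, Cxcr2, Clca1 and the epithelial markers other than Krt18 and Vil1. Alternatives were 9 settings of normalization, background, floor, probe choice, filter and fold. Python 3.11.15 with pandas 2.3.3 was used.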

Additional observations from a re-analysis of the deposited data

Results flagged for a closer look

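Lypd8, the flagellum-binding protein of surface colonocytes, differed by -1.52 (log2, ginger minus zingerone), and its differences from the TNBS array had opposite signs, -0.27 on ginger and 1.25 on zingerone. Wfdc18, of the Wfdc2 family, did the same, with -1.01 between the arrays, -0.30 on ginger and 0.71 on zingerone. Each rests on 1 probe and 1 array per group, the ginger differences are small, and the difference between the agents was not tested.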

How the results depend on the processing

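Over 9 planned settings and 1 added after seeing the data (without the probe annotated Pap), 113 of 120 counts of the 8 genes stayed within 1.5 times their value. The log2 differences of single genes do not depend on the fold threshold and were compared under the other settings only. All 378 kept their sign, but most of these settings could hardly change them. Each of the genes has 1 probe and passed the filter, and the deposited arrays already share nearly 1 distribution. Only subtraction of the 5th percentile moved the differences by more than a trace. With it 3 passed 2-fold anew: Reg3g minus mock at 1.09 on ginger and 1.54 on zingerone, and Reg3b minus mock at 1.43 on ginger. In that setting 2 genes were thus higher than mock on ginger and 1 on zingerone, in place of 0. At 1.5-fold, 3 genes were higher than mock on ginger and 3 on zingerone, and 2 were lower on ginger than on zingerone. At 3-fold, 1 gene was higher on ginger than on TNBS in place of 3, and 0 were lower on ginger than on zingerone in place of 1. A count that stayed within 1.5 times could still lose a gene. At 3-fold the calls also ended for Wfdc2 on TNBS (2.30-fold above mock) and Dmbt1 on ginger (2.50-fold below mock). Against TNBS they ended for Reg3b on ginger (2.96-fold lower), and for Reg3g (2.99-fold lower) and Lypd8 (2.38-fold higher) on zingerone. Counts over all genes moved by over 1.5 times under the same 3 settings: for TNBS against mock, 511 higher and 455 lower became 855 and 841 after subtraction, 1190.0 and 1230.0 at 1.5-fold, and 228 and 118 at 3-fold. For ginger against TNBS, 136 and 249 became 326 and 416, 609 and 644, and 31 and 89. For zingerone against TNBS, 460 and 298 became 963 and 534, 1320.0 and 865, and 79 and 115. For ginger against mock, 163 and 109 became 296 and 280.0, 498 and 523, and 68 and 38. For zingerone against mock, 154 and 106 became 379 and 195, 643 and 514, and 63 and 33. For ginger against zingerone, 36 and 75 became 63 and 314, 159 and 488, and 19 and 16. No paired analysis was possible because there is 1 array per group and the result comes from no test. Signal over background limits Reg3g, Reg3b and Mptx1, each dimmer than the filter level on 1 or more arrays.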
